A study of Mus musculus with 16 samples.

Results

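EGF receptors and the genes that restrain them were examined as 8 genes picked by symbol from the 41585 rows of a table of liver RNA counts. The receptors are Egfr, Erbb2 and Erbb3. Errfi1 and Lrig1 encode inhibitors that act on the receptors themselves. Dusp6, Spry2 and Spry4 encode inhibitors of ERK signalling, the kinase cascade below the receptors. All 8 symbols were found, and all 8 were among the 13470 genes with enough counts to be tested. The set was proposed because Egfr and Dusp6 were lower in transgenic than in control males in these same libraries. That comparison is therefore given as a description, without a test.

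Livers came from C57BL/6 mice on a diet with 60% fat for 16 weeks. The Cyp2b-null group lacks mouse Cyp2b genes, and the hCYP2B6-Tg group carries human CYP2B6, a liver enzyme that oxidises drugs, steroids and fatty acids. Males and females of each genotype gave 4 libraries per group, 16 in all, each called by its group and its title's number. The sources used here give no age, batch or day of collection, no promoter for the transgene and no statement on whether the hCYP2B6-Tg animals also carry the Cyp2b deletion, and a row for the human transcript was not analysed here. They also do not say outright that each library is a different animal, so p-values measure the spread between libraries, which may be partly technical. Totals ran from 5584587 to 9672708 counts per library. The rows Cyp2b10, Cyp2b19 and Cyp2b23 served as a check of the genotype labels. Summed, they had 0 to 1 counts in each library of Cyp2b-null mice. The sums were 9 to 26 for transgenic females and 6 to 50 for transgenic males. Hepatocyte markers such as albumin and apolipoprotein genes were high in every library.

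EGF and related ligands, many of them cut from the cell surface by proteases, bind receptors of the ERBB family, which pair and phosphorylate each other. Adaptor proteins then switch on RAS, and RAF, MEK and ERK kinases follow in turn. ERK signalling induces several of its own inhibitors, so that their transcripts are often read as a trace of recent pathway activity. In liver the EGF receptor takes part in regeneration after tissue loss, and its transcript is known to be higher in male than in female mice.

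Of the 8 genes, 7 are placed here in the mouse genome (GRCm38, RefSeq). Egfr is at chr11:16752203-16913907 on the plus strand and Erbb2 at chr11:98412484-98437716 on the plus strand. Erbb3 is at chr10:128567523-128589635 on the minus strand. Errfi1 is at chr4:150853796-150868889 on the plus strand and Lrig1 at chr6:94604529-94700298 on the minus strand. Dusp6 is at chr10:99263231-99267489 on the plus strand and Spry2 at chr14:105891947-105896819 on the minus strand. Lrig1 shares 144 bases of exon with Slc25a26 on the opposite strand, and Erbb2 shares 9 with Mien1. No label states whether counting used strand, so reads of those stretches cannot be assigned to one gene with certainty.

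The 250 bases before the annotated start are shown for Egfr and Dusp6, the 2 genes with the clearest differences between groups. Each is written 5′ to 3′ on the gene's own strand, and capitals mark the motif matches described after them.
Egfr, chr11:16751953-16752202, plus strand: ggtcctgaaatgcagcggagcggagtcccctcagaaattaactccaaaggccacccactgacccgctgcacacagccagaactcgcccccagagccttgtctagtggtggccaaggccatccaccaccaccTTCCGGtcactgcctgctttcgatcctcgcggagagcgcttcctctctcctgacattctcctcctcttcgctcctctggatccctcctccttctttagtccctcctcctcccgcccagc
Dusp6, chr10:99262981-99263230, plus strand: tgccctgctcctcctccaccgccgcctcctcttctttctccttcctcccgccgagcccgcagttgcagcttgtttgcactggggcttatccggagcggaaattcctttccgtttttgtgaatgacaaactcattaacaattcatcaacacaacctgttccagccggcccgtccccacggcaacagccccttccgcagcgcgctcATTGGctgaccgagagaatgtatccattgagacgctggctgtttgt
The Egfr window held the ETS core CCGGAA once, read on the opposite strand, 119 bases before the start. ETS factors are transcription factors, some of which ERK phosphorylates. The motif was present in 12.0% of 32851 windows of the same length across the RefSeq promoter table. The Dusp6 window held a CCAAT box, letters CCAAT, also on the opposite strand and 46 bases before the start, as did 33.8% of windows. The STAT motif TTCNNNGAA, the AP-1 motif TGANTCA, the cAMP response element TGACGTCA and the E-box CACGTG, searched on both strands, were in neither window. A match describes these letters and does not show that a factor binds there. The table had windows for 6 of the 8 genes, not for Erbb3 or Spry4.

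Levels are counts scaled to library size (CPM), scaled by edgeR's TMM factors, with mean ± SD over n = 4 libraries. Levels of different genes were compared per kilobase of exon (RPKM). Changes are log2 fold changes ± standard error from edgeR's quasi-likelihood test, two-sided, with p-values adjusted over all 13470 tested genes by Benjamini and Hochberg's method. A gene passed the test where that adjusted p was under 0.05.

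**Figure D1:**
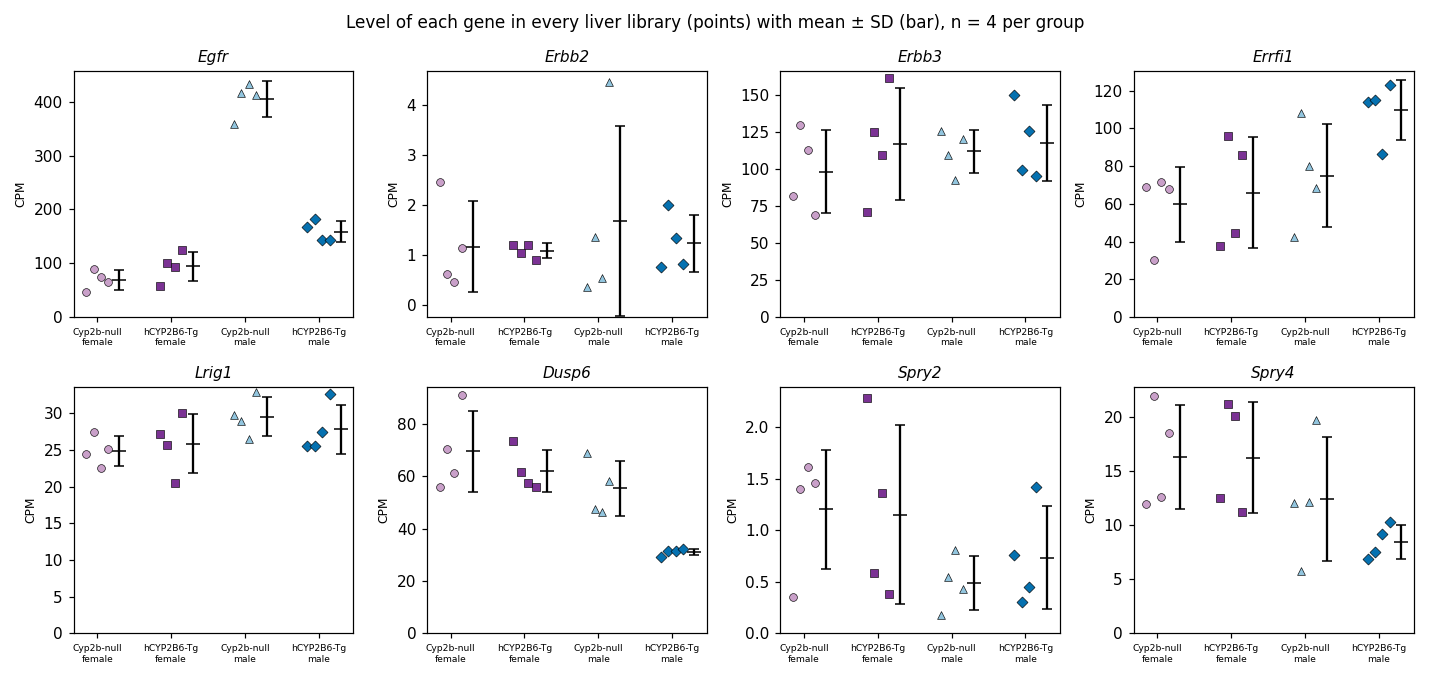
CPM of each of the 8 genes in every library (points, 4 per group) with the group mean ± SD (bar), on a linear axis. Egfr lies between 358 and 433 CPM in Cyp2b-null males, above every other library, and Dusp6 lies between 29.2 and 32.1 CPM in hCYP2B6-Tg males, below every other library.

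Egfr, the receptor for EGF, TGF alpha and several other ligands, varied most between groups. In Cyp2b-null males 1, 2, 3 and 4 it stood at 358, 417, 433 and 413 CPM. In hCYP2B6-Tg males 2, 3, 4 and 5 it stood at 168, 182, 143 and 142 CPM. Every Cyp2b-null male was thus above every hCYP2B6-Tg male, and within each group the libraries lay close together. The Cyp2b-null females 1, 3, 4 and 5 had 46.2, 89.3, 75.4 and 64.9 CPM. The hCYP2B6-Tg females 1, 2, 4 and 5 had 58.2, 100.5, 93.3 and 124.8 CPM. The female groups overlapped each other, and no female library reached the lowest male value. In bulk tissue, fewer cells that express a gene and less of its RNA per cell cannot be told apart.

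The order of the Egfr means was Cyp2b-null females (69.0 ± 18.2 CPM), hCYP2B6-Tg females (94.2 ± 27.5), hCYP2B6-Tg males (159 ± 19.6) and Cyp2b-null males (405 ± 32.7). In females the genotypes did not differ beyond their spread: the log2 fold change of hCYP2B6-Tg over Cyp2b-null was 0.45 ± 0.21, with a 95% interval of -0.0079 to 0.90 and an edgeR adjusted p of 0.663. These libraries played no part in choosing the gene. In males, where the gene was chosen, the same fold change was -1.35 ± 0.21, a level 0.392 times that of Cyp2b-null males. The genotype effect in males minus that in females was -1.80 ± 0.30 for Egfr, which contains the male comparison and is likewise a description.

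Sex differences in Egfr rest on the same male libraries as the comparison that chose the gene, so they too are given as a description, without a test. Among Cyp2b-null livers Egfr was 5.86 times higher in males than in females, a log2 fold change of females over males of -2.55 ± 0.22. It was -2.70 to -2.40 with any single library left out. Among hCYP2B6-Tg livers Egfr was 1.68 times higher in males (-0.75 ± 0.21), and the estimate was -0.92 to -0.58 with any single library left out.

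Erbb3, a receptor for neuregulins with little kinase activity of its own, had nearly the same level in all groups. Its means were 98.5 ± 28 CPM in Cyp2b-null females, 117 ± 37.6 in hCYP2B6-Tg females, 112 ± 14.6 in Cyp2b-null males and 118 ± 25.8 in hCYP2B6-Tg males. Libraries ran from 69.0 CPM in Cyp2b-null female 5 to 162 CPM in hCYP2B6-Tg female 5. The largest of its 4 fold changes was 0.25 ± 0.25, in females between genotypes (edgeR adjusted p = 0.862), and none passed. Per kilobase of exon, the balance between these receptors differed by group. In Cyp2b-null males Egfr had 35.8 RPKM against 18.6 for Erbb3. In hCYP2B6-Tg males it had 14.03 against 19.6, in Cyp2b-null females 6.09 against 16.4, and in hCYP2B6-Tg females 8.32 against 19.5. These values rest on exon lengths of 11326 bases for Egfr and 6016 for Erbb3, all annotated exons joined. In hCYP2B6-Tg males the order depends on that scaling: before it Egfr was the higher, at 159 against 118 CPM. In the other 3 groups the order of the means was the same on both scales.

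Erbb2, which binds no ligand of its own and serves as partner to the other receptors, was near the detection limit. Its means were 1.17 ± 0.906 CPM in Cyp2b-null females, 1.09 ± 0.151 in hCYP2B6-Tg females, 1.68 ± 1.90 in Cyp2b-null males and 1.24 ± 0.573 in hCYP2B6-Tg males. A count of 0 would have allowed up to 0.313 to 0.542 CPM, depending on the library (3 counts, for counting error only). Per kilobase its group means were 0.209 to 0.323 RPKM, far below those of Egfr and Erbb3. Cyp2b-null males 1, 2, 3 and 4 had 2, 10, 4 and 31 counts, and the other 12 libraries had 4 to 14. Cyp2b-null male 4 was therefore apart from all others. In that library the bile duct markers Krt19, Muc1 and Epcam were also highest. They had 270, 222 and 69 counts there, against 0 to 12, 0 to 8 and 2 to 19 elsewhere. The pancreatic gene Ctrb1 was highest there too (159 against 0 to 1). The other pancreatic markers looked up were not raised: Cpa1, Pnlip, Clps, Prss2, Cel and Amy2a5 had 0 counts in that library. Cela2a had 15, against 9 to 33 elsewhere. The summed level of the 8 bile duct markers was 131 CPM there, and 20.6 CPM in the lowest Cyp2b-null male. Their part in the Erbb2 value was not tested. Between male genotypes the Erbb2 fold change was -0.49 ± 0.58 with that library and 0.62 without it. The fold change of Cyp2b-null females over males turned in the same way, from -0.65 ± 0.59 to 0.46. No Erbb2 comparison passed the test.

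**Figure D2:**
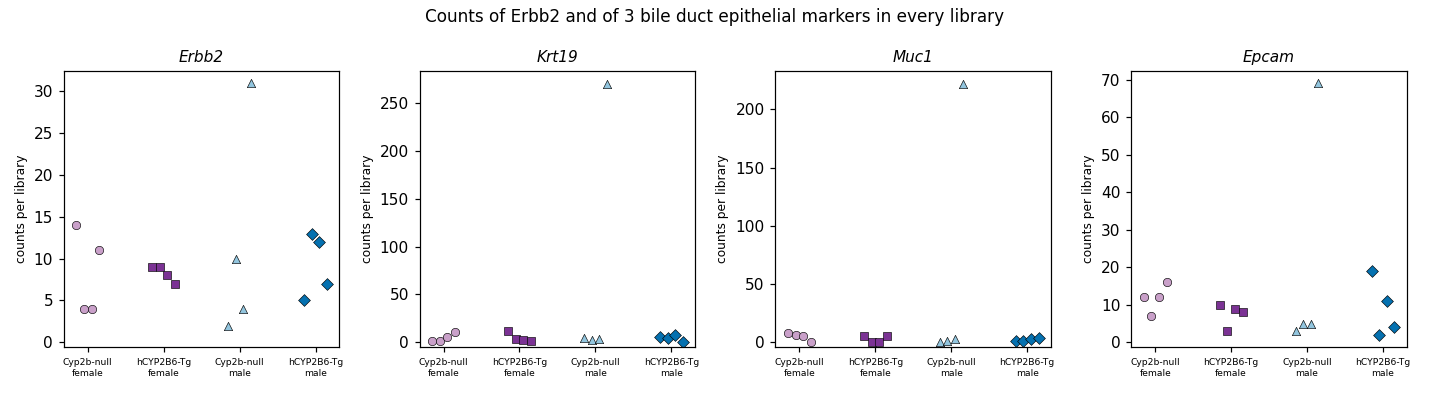
Counts of Erbb2 and of the bile duct epithelial markers Krt19, Muc1 and Epcam in every library, on linear axes, with the 4 libraries of each group side by side. Cyp2b-null male 4 is the highest library in all 4 panels, with 31 counts of Erbb2 and 270 of Krt19.

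Errfi1 encodes MIG6, a cytoplasmic protein that binds the kinase domain of ERBB receptors and blocks it. In Cyp2b-null females 1, 3, 4 and 5 it had 69.2, 30.2, 71.4 and 68.0 CPM, and in hCYP2B6-Tg females 1, 2, 4 and 5 it had 37.7, 96.0, 44.5 and 85.9. In Cyp2b-null males 1, 2, 3 and 4 it had 42.4, 108, 80.2 and 68.3 CPM, and in hCYP2B6-Tg males 2, 3, 4 and 5 it had 114, 115, 86.4 and 123. The spread was wide within each group except hCYP2B6-Tg males, and every pair of groups compared overlapped. The female genotype difference was 0.15 ± 0.36 (95% interval -0.64 to 0.93). Between hCYP2B6-Tg females and males it was -0.73 ± 0.36 (-1.50 to 0.05, edgeR adjusted p = 0.243), and between Cyp2b-null females and males -0.33 ± 0.36. The male genotype difference, as a description, was 0.55 ± 0.36, from a mean of 74.8 ± 27.3 CPM to one of 110 ± 16.0.

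Lrig1, a membrane protein that promotes breakdown of ERBB receptors, was the steadiest of the 8 genes. All 16 libraries lay between 20.4 and 33.0 CPM. Its means were 24.9 ± 2.02 CPM in Cyp2b-null females, 25.9 ± 4.03 in hCYP2B6-Tg females, 29.5 ± 2.66 in Cyp2b-null males and 27.8 ± 3.37 in hCYP2B6-Tg males. The female genotype difference was 0.06 ± 0.12, with a 95% interval of -0.19 to 0.31. Between Cyp2b-null females and males it was -0.25 ± 0.12 (-0.50 to 0.0017, edgeR adjusted p = 0.255).

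Dusp6 encodes a cytoplasmic phosphatase that inactivates ERK and is itself induced by ERK signalling. Cyp2b-null males 1, 2, 3 and 4 had 69.0, 47.6, 46.4 and 58.1 CPM, and hCYP2B6-Tg males 2, 3, 4 and 5 had 29.2, 31.5, 31.3 and 32.1. All hCYP2B6-Tg males lay below all other 12 libraries, with an SD of 1.27 CPM around a mean of 31.0. Cyp2b-null females 1, 3, 4 and 5 had 55.7, 70.3, 61.0 and 90.9 CPM, and hCYP2B6-Tg females 1, 2, 4 and 5 had 73.4, 61.5, 57.2 and 55.7. The female groups and Cyp2b-null males overlapped, with means of 69.5 ± 15.5, 62.0 ± 8.03 and 55.3 ± 10.5 CPM.

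The Dusp6 genotype difference in females was -0.17 ± 0.14 (95% interval -0.46 to 0.12, edgeR adjusted p = 0.817). In males, as a description, it was -0.83 ± 0.14, with an interval of -1.13 to -0.53. The male effect minus the female effect was -0.66 ± 0.20. The sex differences of Dusp6, like those of Egfr, use the male libraries that chose the gene and are a description. Within hCYP2B6-Tg livers the level was higher in females by 0.997 ± 0.14, and by 0.90 to 1.04 with any single library left out. Within Cyp2b-null livers it was higher in females by 0.34 ± 0.14, and by 0.18 to 0.46 with any single library left out.

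**Figure D3:**
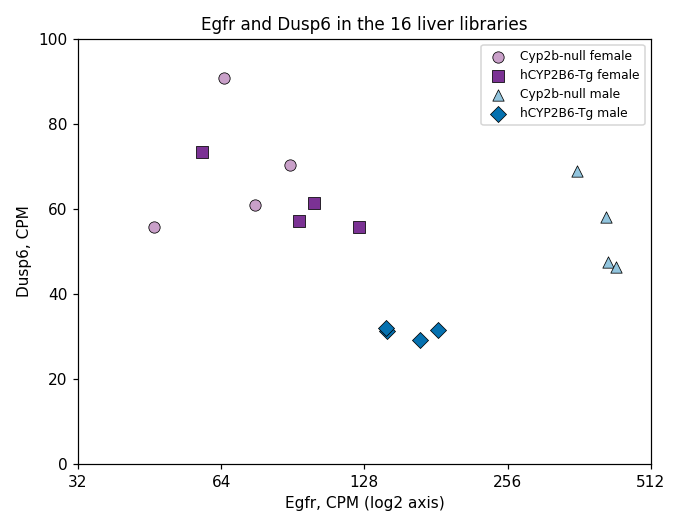
Dusp6 CPM (linear axis) against Egfr CPM (log2 axis) in each of the 16 libraries, marked by group. hCYP2B6-Tg males sit at 142 to 182 CPM of Egfr and 29.2 to 32.1 CPM of Dusp6, apart from Cyp2b-null males to their right and from females to their left.

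The groups were thus ordered differently by the 2 genes. By Egfr, hCYP2B6-Tg males were between the females and Cyp2b-null males, whereas by Dusp6 they were below both sexes of Cyp2b-null mice and below hCYP2B6-Tg females.

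Markers of the cell types in the tissue are given beside these values. The summed level of 10 hepatocyte markers, of which albumin had by far the most counts, was 119939 to 125829 CPM in Cyp2b-null males and 127062 to 134596 in hCYP2B6-Tg males. Marker by marker there was no common direction between male genotypes: 6 of 10 estimates were higher in hCYP2B6-Tg males, 4 were lower and none passed. With sex, all 8 Kupffer cell markers had higher estimates in females in both genotypes. In Cyp2b-null livers 4 of 8 passed, where 7.52% of all tested genes did. In hCYP2B6-Tg livers 1 of 8 passed, near the 10.3% of all tested genes that did. The summed level of the 8 was 434 to 742 CPM in Cyp2b-null females, 458 to 615 in hCYP2B6-Tg females, 311 to 478 in Cyp2b-null males and 359 to 435 in hCYP2B6-Tg males. Some fat cell markers differed in the opposite direction. Of 8, 4 were tested, with medians of -1.31 in Cyp2b-null and -1.97 in hCYP2B6-Tg livers. Estimates were lower in females for 4 of 4 and 3 of 4, and 2 passed in each genotype, beside the same shares of all genes. The summed level of all 8 was 6.32 to 13.9 CPM in Cyp2b-null females, 8.27 to 13.2 in hCYP2B6-Tg females, 21.4 to 38.0 in Cyp2b-null males and 20.8 to 71.5 in hCYP2B6-Tg males. Among the fat cell markers Cfd had 0 to 3 counts in female libraries and 31 to 266 in male ones, and Cidec 7 to 23 and 52 to 227. Adrb3 had 1 to 35 in females and 9 to 29 in males, without such a shift. Adipoq had 0 to 7 counts and Lep 0 to 1 in any library, so the summed level is not a measure of fat cells alone. The part of these cell types in the receptor and feedback genes was not tested.

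Spry4 and Spry2 encode Sprouty proteins, which act between receptor and RAF to limit ERK signalling and are induced by it. Spry4 had 11.9, 22.0, 12.7 and 18.6 CPM in Cyp2b-null females 1, 3, 4 and 5, and 12.5, 21.2, 20.1 and 11.3 in hCYP2B6-Tg females 1, 2, 4 and 5. Cyp2b-null males 1, 2, 3 and 4 had 12.1, 5.78, 12.2 and 19.7 CPM, and hCYP2B6-Tg males 2, 3, 4 and 5 had 6.87, 7.54, 9.23 and 10.3. All hCYP2B6-Tg females were above all hCYP2B6-Tg males, and the other groups compared overlapped. That sex difference was 0.92 ± 0.32 (95% interval 0.23 to 1.61) and did not pass (edgeR adjusted p = 0.0889). It did pass with DESeq2 (0.0186), in a fit of the 8 libraries alone (0.0139) and without robust estimation of the spread (0.0452). Between female genotypes the Spry4 difference was -0.0038 ± 0.30 (-0.64 to 0.64), and between male genotypes, as a description, -0.53 ± 0.34.

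Spry2 had 1 to 17 counts per library and was at or near the detection limit. Its means were 1.21 ± 0.577 CPM in Cyp2b-null females, 1.15 ± 0.865 in hCYP2B6-Tg females, 0.494 ± 0.262 in Cyp2b-null males and 0.737 ± 0.497 in hCYP2B6-Tg males. The Cyp2b-null sex difference was 1.28 ± 0.61 higher in females, with an edgeR adjusted p of 0.245. At this depth no difference in Spry2 was resolved.

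**Figure D4:**
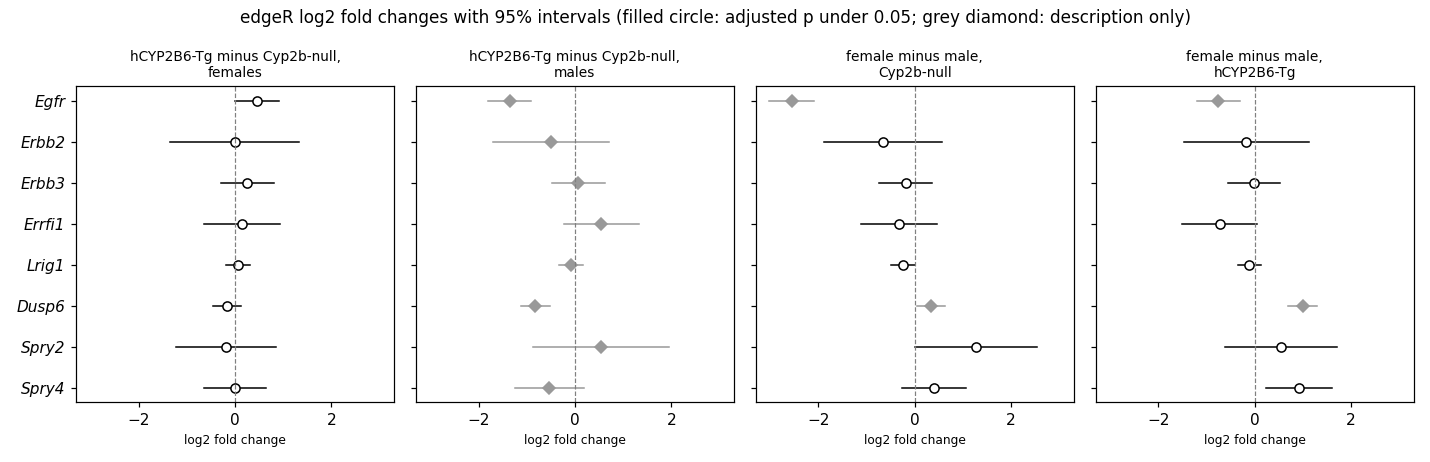
edgeR log2 fold changes (points) with 95% intervals (lines) of the 8 genes in 4 comparisons, 4 libraries against 4 in each. Open circles are tested differences, none of which passed, and grey diamonds are descriptions without a test: the male comparison that chose the genes, and Egfr and Dusp6 between the sexes, which use the same male libraries.

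Counted over the set, 0 of 8 genes passed between female genotypes, and 0 had an unadjusted p under 0.05. The share of all tested genes that passed there was 0%, with 1022 genes (7.59%) at an unadjusted p under 0.05 in edgeR, and 12 genes passed in DESeq2 and 0 in limma voom. In 0 of the 8 did the female groups not overlap, against 3.50% of all tested genes. The median fold change of the 8 was 0.03, beside 0.0016 over all tested genes. Between male genotypes 2 of 8, Egfr and Dusp6, were under the threshold, against 0.111% of all tested genes. Groups did not overlap for 2 of 8, against 4.77%. The set was built on this comparison, so nothing is read from those counts or from how they moved. Without any single male library of the 8 Egfr was over the threshold, with fold changes of -1.43 to -1.30. In the same 8 fits Dusp6 was under the threshold only without Cyp2b-null male 2 or 3. The Dusp6 fold changes in those fits were -0.90 to -0.70. With the title number as a replicate block, and in limma voom, Dusp6 was over the threshold.

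Between the sexes 1 of 8, Egfr, was under the threshold in Cyp2b-null livers, where 7.52% of all tested genes were, and 2 of 8, Egfr and Dusp6, in hCYP2B6-Tg livers, where 10.3% were. Nothing is read from these counts either, since both genes were chosen on the male libraries, and none of the other 6 passed. Dusp6 joined Egfr in Cyp2b-null livers without Cyp2b-null male 1. In hCYP2B6-Tg livers the count was 1 without hCYP2B6-Tg female 2 or 4, without hCYP2B6-Tg male 2, 3, 4 or 5, and with no filter on low counts. Groups did not overlap for 1 of 8 genes in Cyp2b-null livers (12.3% of all) and for 3 of 8 in hCYP2B6-Tg livers (15.6% of all). In the genotype effect of males minus that of females 0 of 8 passed, where 0.0445% of all genes did. With DESeq2, limma voom, the replicate block and no robust estimation 1 of 8, Egfr, was under the threshold. In those settings 16, 3, 9 and 6 of all 13470 genes were. That effect contains the male comparison that chose Egfr, so nothing is read from its counts.

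The wider pathway was followed in 6 lists with 103 genes, all of them in the table and 79 of them tested. None passed between genotypes in either sex. The median fold change of the 79 was -0.03 in females and 0.0059 in males, beside 0.0016 and -0.0043 over all genes. With sex, 7 of 79 passed in Cyp2b-null livers (6 higher in females, 1 lower), where 7.52% of all tested genes did. In hCYP2B6-Tg livers 5 of 79 passed (2 higher, 3 lower), where 10.3% of all did. Both counts are near the share over all genes. Medians there were 0.08 and 0.03, beside 0.0046 and 0.02 over all genes. In hCYP2B6-Tg livers the count was 2 without hCYP2B6-Tg female 2, 3 without hCYP2B6-Tg female 1 and 3 without hCYP2B6-Tg male 3. In Cyp2b-null livers it was 3 without Cyp2b-null male 3, 4 without Cyp2b-null male 2, 4 without Cyp2b-null female 4 and 4 in a fit of the 8 libraries alone.

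**Figure D5:**
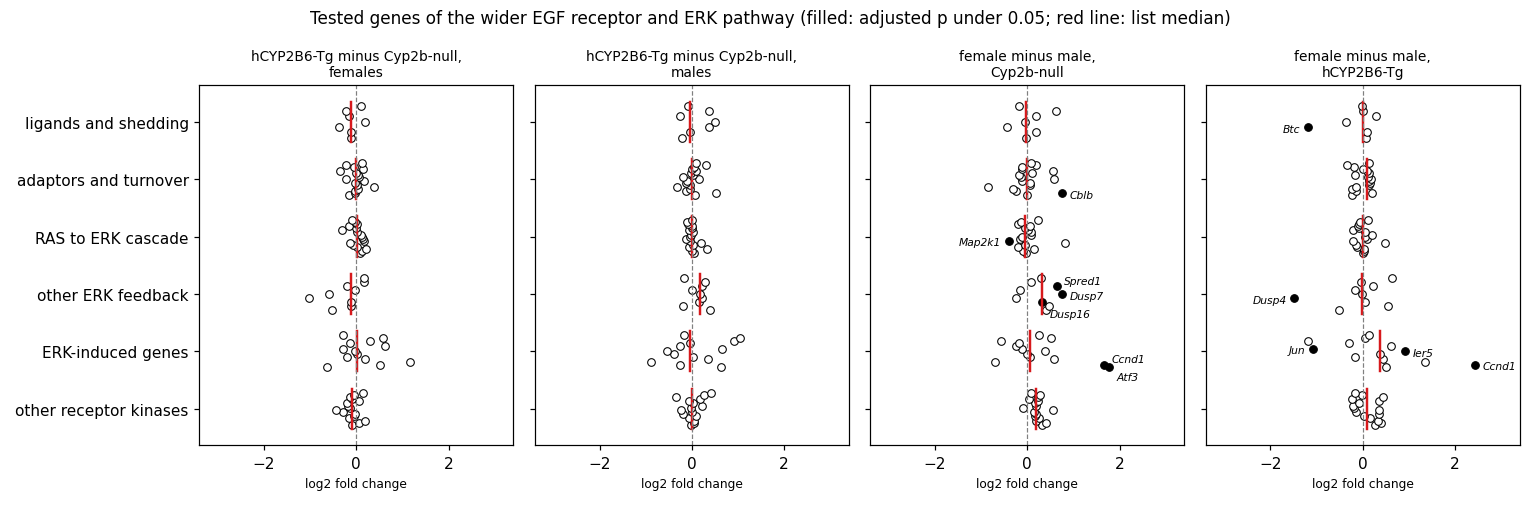
edgeR log2 fold changes of the 79 tested genes of 6 pathway lists in 4 comparisons, with 1 point per gene, filled and named where the adjusted p was under 0.05, and a red line at the list median. No point is filled in the genotype comparisons, and Ccnd1 is the point farthest to the right in hCYP2B6-Tg livers.

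Of 15 genes for ligands and for the proteases and cofactors that release them, 7 had enough counts to be tested. The EGF receptor ligand gene Btc passed in 1 comparison: it was lower in hCYP2B6-Tg females (1.90 ± 0.348 CPM) than in hCYP2B6-Tg males (4.33 ± 0.746). The log2 difference was -1.20 ± 0.30 (edgeR adjusted p = 0.0104), and it passed without each single library. Btc had few counts, 12 to 16 per library in these females and 24 to 41 in these males. Tgfa, another EGF receptor ligand, was level at 18.99 ± 2.01 CPM in Cyp2b-null females, 20.5 ± 3.43 in hCYP2B6-Tg females, 21.8 ± 2.55 in Cyp2b-null males and 20.6 ± 5.30 in hCYP2B6-Tg males. The neuregulin gene Nrg4, whose product binds ERBB4, had 15.04 ± 2.38 CPM in control males and 21.5 ± 1.75 in transgenic ones. That difference of 0.51 ± 0.14 had the smallest p of the list between male genotypes and did not pass (edgeR adjusted p = 0.272). Among untested ligands, Egf had 14, 22, 9 and 30 counts summed over Cyp2b-null females, hCYP2B6-Tg females, Cyp2b-null males and hCYP2B6-Tg males, and Hbegf had 41, 31, 12 and 15. Areg had 0 counts in all 16 libraries.

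All 17 genes for receptor partners, adaptors and turnover were tested. The ubiquitin ligase gene Cblb alone passed, higher in Cyp2b-null females (11.8 ± 2.29 CPM) than in males (7.06 ± 1.27), by 0.74 ± 0.21 (edgeR adjusted p = 0.0308). Of the 8 fits that left out 1 library it passed only without Cyp2b-null female 5 or Cyp2b-null male 1 (otherwise up to 0.117), and it did not pass with limma voom (0.0578). Erbb4, the remaining receptor of the family, had 3.10 ± 1.05 CPM in Cyp2b-null females, 4.01 ± 1.39 in hCYP2B6-Tg females, 5.66 ± 0.586 in Cyp2b-null males and 4.44 ± 0.954 in hCYP2B6-Tg males, and did not pass in any comparison.

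All 17 genes of the cascade from RAS to ERK were tested as well. The MEK gene Map2k1 was lower in Cyp2b-null females (37.2 ± 5.10 CPM) than in males (49.1 ± 6.74), a log2 difference of -0.40 ± 0.10 (edgeR adjusted p = 0.0181), and missed the threshold without Cyp2b-null female 1 or 4 or Cyp2b-null male 3 (up to 0.114) and in a fit of the 8 libraries alone (0.0684). The other 16 did not pass.

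Of 16 other feedback genes, 9 were tested. Spred1, which holds RAS inactive through neurofibromin, was higher in Cyp2b-null females (34.0 ± 3.50 CPM) than males (21.8 ± 1.63), by 0.64 ± 0.13 (edgeR adjusted p = 0.00147). Dusp7, a close relative of Dusp6, was higher by 0.75 ± 0.19 (edgeR adjusted p = 0.0116), at 7.91 ± 0.584 against 4.70 ± 0.792 CPM. Both passed without each single library. Dusp16, a phosphatase that acts mainly on JNK, was higher by 0.33 ± 0.10 (edgeR adjusted p = 0.0425) and passed only without Cyp2b-null female 3 or Cyp2b-null male 4 among the 8 fits that left out 1 library (otherwise up to 0.124). It did not pass with no filter (0.0745) or in a fit of the 8 libraries alone (0.0670). In hCYP2B6-Tg livers Dusp4, a nuclear ERK phosphatase, was lower in females (0.766 ± 0.136 CPM) than males (2.21 ± 0.615), a log2 difference of -1.49 ± 0.38 (edgeR adjusted p = 0.0134), and lost its call only without hCYP2B6-Tg female 2 (0.0501). Dusp4 had 5 to 6 counts per library in these females and 13 to 19 in these males, so it was near the detection limit. On those few counts its sex difference was opposite in sign to that of Dusp6 in the same livers. Between female genotypes Dusp7 had the smallest p of the list, at -0.59 ± 0.18 (edgeR adjusted p = 0.466).

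Of 21 genes commonly induced by ERK, 13 were tested. Ccnd1, the gene for the cell cycle regulator cyclin D1, showed the clearest sex difference in both genotypes. It had 109 ± 13.4 CPM in Cyp2b-null females against 34.2 ± 12.99 in males, a difference of 1.67 ± 0.20 (edgeR adjusted p = 3.95e-05). In hCYP2B6-Tg livers it had 156 ± 28.2 against 29.0 ± 2.03 CPM, a difference of 2.42 ± 0.20 (edgeR adjusted p = 8.11e-07). Both calls held without each single library. The stress-induced factor gene Atf3 was higher in Cyp2b-null females by 1.77 ± 0.51 (edgeR adjusted p = 0.0326), at 2.54 ± 1.20 against 0.828 ± 0.699 CPM, and lost its call without Cyp2b-null female 4 or 5 or Cyp2b-null male 2, 3 or 4 (up to 0.157). Nor did it pass with limma voom (0.0569), in a fit of the 8 libraries alone (0.0502) or with the replicate block (0.0782). Atf3 had 1 to 10 counts per library in Cyp2b-null males, near the detection limit. In hCYP2B6-Tg livers the early response gene Ier5 was higher in females by 0.91 ± 0.25 (edgeR adjusted p = 0.0179), at 6.34 ± 2.15 against 3.35 ± 0.475 CPM. It lost its call without hCYP2B6-Tg female 1 or 2 or hCYP2B6-Tg male 3 or 4 (up to 0.0776) and with the replicate block (0.0700). Jun, part of the AP-1 factor, was lower in these females (10.2 ± 0.661 against 21.2 ± 10.3 CPM), a log2 difference of -1.07 ± 0.30 (edgeR adjusted p = 0.0343). It passed only without hCYP2B6-Tg male 2 or 5 among the fits that left out 1 library (otherwise up to 0.0832), and did not pass with no filter (0.0856) or in a fit of the 8 libraries alone (0.0734). Ccnd1 between female genotypes, at 0.51 ± 0.18, did not pass (edgeR adjusted p = 0.572).

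A list of 17 genes held other receptor kinases of liver cells and Klb, which encodes a co-receptor of FGF receptors and not a kinase. Of the 17, 16 were tested, Klb among them, and none passed in any of the 4 comparisons. In Cyp2b-null livers 15 of the 16 had higher estimates in females, with a median of 0.19, beside 0.0046 over all genes, and in hCYP2B6-Tg livers 9 of 16 had. Several of these are genes of endothelial and stellate cells. Markers of sinusoidal endothelium had higher estimates in Cyp2b-null females for 7 of 8 and of stellate cells for 8 of 8, with none past the threshold. In hCYP2B6-Tg females they were higher for 4 of 8 and 7 of 8, again with none past it. The part of these cells in the kinase estimates was not tested.

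Genes with profiles most like those of Egfr and Dusp6 were looked up among 11531 tested genes with a mean of at least 1 CPM. Genes with predicted or clone names (Gm with a number, Rik or LOC) were left out of these. The measure was the root mean square difference between profiles of log2(CPM + 0.5) over all 16 libraries, each centred on its own mean. For Egfr, whose own profile had an SD of 1.02, the nearest were Keg1 (0.417), Adh6-ps1 (0.477), Ces3a (0.505), Mcm10 (0.508) and C8b (0.517). Keg1 had mean levels of 40.1, 54.9, 169 and 118 CPM in Cyp2b-null females, hCYP2B6-Tg females, Cyp2b-null males and hCYP2B6-Tg males. It shared the order of the Egfr groups with a smaller gap between the males. For Dusp6, with an SD of 0.476, the nearest were Ncald (0.216), Snx12 (0.257), N4bp3 (0.283), P2ry4 (0.286) and Hist2h2aa2 (0.286). Ncald, a neuronal calcium sensor gene, had 35.7, 33.7, 25.3 and 16.6 CPM in the same order of groups.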

How the data were processed

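Liver RNA libraries, 16 in all, were prepared with a NEB Next Ultra kit from Trizol extracts, per the labels. The deposited values are whole-number read counts per gene symbol. Per the submitters' processing notes the tools were FastQC, Trimmomatic, GSNAP, Subread and edgeR, on GRCm38.p6. Versions and the strand setting: not given in the sources used here.

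Groups came from titles, genotype and sex labels, and 3 empty unnamed columns were left out. Rows without any count numbered 16032. edgeR 4.0.16 in R 4.3.3 (filterByExpr, TMM, glmQLFit with robust estimation in its newer form, quasi-likelihood F test) was run on 1 fit of 16 libraries in 4 groups, with limma 3.58.1 and DESeq2 1.42.0 as alternatives. RPKM used GENCODE exon lengths. The test was checked on simulated counts with changes planted in hCYP2B6-Tg males only. Those counts held no other difference between groups, so the check does not cover data with many sex differences. No pair of libraries of a group agreed within sampling noise (chi-square per degree of freedom 6.53 to 19.7 over 24 pairs). Intervals and limits cover counting error or library spread only.

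The 8 genes, the pathway lists and the marker lists were chosen with earlier results of these data known. All 8 genes were described. From each list up to 4 genes past the threshold in a comparison were named, or at most 2 with the smallest p. For Egfr and Dusp6 the 5 genes of nearest profile were named. Tgfa, Erbb4 and the untested ligands were named outside that rule, after their values were seen.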

Additional observations from a re-analysis of the deposited data

Results flagged for a closer look

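Within the 32 combinations of gene and group, 2 had a library far from the other 3, by a gap over the group's range above Dixon's limit for 4 samples. Chance alone gives about 1 in 20. Errfi1 was low in Cyp2b-null female 3, at 30.25 CPM, with a gap of 0.919 of the range. Spry2 was low in Cyp2b-null female 1, at 0.3512 CPM, with a gap of 0.835 of the range. That Spry2 value rests on 2 counts.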

How the results depend on the processing

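Each group had 4 libraries of 1 tissue at 1 time, and Erbb2 and Spry2 had few counts. The number of genes past the threshold among the 8 stayed at 0 between female genotypes in every setting. Between male genotypes it was 1 in place of 2 with limma voom and with the title number as a replicate block, and 0 to 1 with 1 library left out. In the genotype effect of males minus that of females it was 1 in place of 0 with DESeq2, limma voom, the replicate block and no robust estimation. With 1 library left out it was 0 to 1 there. Both comparisons hold the male libraries that chose Egfr and Dusp6, so nothing is read from these counts. Between the sexes the number was 1 to 2 in Cyp2b-null livers and 1 to 2 in hCYP2B6-Tg livers with 1 library left out. In hCYP2B6-Tg livers it was 1 without a filter and 3 with DESeq2 or no robust estimation. For the 79 pathway genes it was 4 in place of 7 in Cyp2b-null livers with only the 8 libraries compared, and with 1 library left out 3 to 8 there and 2 to 7 in hCYP2B6-Tg livers. Over all tested genes, same-numbered libraries did not deviate together (r -0.11 to 0.13 over 12 pairs, 1 of them over 0.1). That check takes all genes at once and cannot show whether same-numbered libraries share something that acts on some genes. Whether the numbers pair the libraries was thus not settled.

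The estimates that changed sign were small ones, or those of Erbb2 and Spry2, which had few counts. Between female genotypes Erbb2 became 0.22 with limma voom and 0.0044 with the replicate block, Errfi1 -0.10 and Spry4 0.10 with the block. Between male genotypes Erbb2 became 0.011 with limma voom and Erbb3 -0.0042 with the block. Between the sexes in hCYP2B6-Tg livers Erbb3 became 0.033 with library totals only and 0.051 with the block. Leaving out 1 library gave, between female genotypes, -0.31 to 0.48 for Erbb2, -0.093 to 0.34 for Errfi1, -0.019 to 0.155 for Lrig1, -0.77 to 0.11 for Spry2 and -0.17 to 0.16 for Spry4. Between male genotypes it gave -0.81 to 0.62 for Erbb2, -0.063 to 0.16 for Erbb3 and -0.036 to 0.88 for Spry2. Between the sexes it gave -1.15 to 0.46 for Erbb2 in Cyp2b-null livers, and in hCYP2B6-Tg livers -0.33 to 0.11 for Erbb2, -0.205 to 0.17 for Erbb3 and -0.031 to 1.13 for Spry2. For the male minus female genotype effect it gave -0.97 to 0.63 for Erbb2 and -0.36 to 0.019 for Erbb3. The cause was not tested. No robust estimation, the older form of the edgeR fit and the settings for pathway genes were chosen after seeing the data.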

Other observations

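Within the 8 female libraries Egfr and Erbb3 varied together. Pearson's r of their log2 levels was 0.870 (exact permutation p = 0.00600, two-sided, n = 8) and Spearman's rho 0.786 (exact permutation p = 0.0279). Over the 28 pairs of the 8 genes the Benjamini-Hochberg adjusted values were 0.168 and 0.642, so the relation fails the correction. Without the 2 libraries farthest from the median of Egfr r was 0.895, and with each group centred on its mean it was 0.879. The pair was singled out after its values were seen. Male libraries fall into separate clusters of Egfr by genotype, with 4 libraries in each, so that no r was computed for them.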
